A study of Homo sapiens with 4 samples.

Results

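The let-7 hairpins of human cells give guide strands that are nearly alike and passenger strands that differ more, so most passengers point to a single locus. Described here are 9 of these passenger strands, out of 1644 miRNA names in the counts: hsa-let-7a-3p, hsa-let-7a-2-3p, hsa-let-7b-3p, hsa-let-7e-3p, hsa-let-7f-1-3p, hsa-let-7f-2-3p, hsa-let-7g-3p, hsa-let-7i-3p and hsa-miR-98-3p. They were chosen by name, with let-7d left out because a plasmid of the study encodes it. The 9 names cover 122 of 12689 isoforms, an isoform being the reads of a miRNA that share both ends. HCT116, a colon carcinoma cell line, was transfected with pCDNA3 carrying nothing (empty vector), with wild-type pri-miRNAs, or with either of 2 mixtures of mutant pri-miRNAs (mutant 1 and mutant 2). The study asked how mismatches and wobble pairs in a pri-miRNA alter its cleavage by DROSHA, and its plasmids held 12 pri-miRNAs and their mutants. Small RNA of total RNA was sequenced in 1 library per condition, 4 in all, so no value has a replicate check. The libraries held 14544516 miRNA reads with the empty vector, 17364117 in wild type, 19834361 in mutant 1 and 17136599 in mutant 2. Of these, 92.0%, 70.5%, 70.7% and 88.3% came from miRNAs that no plasmid encodes, called untransfected below. Levels are counts scaled to the untransfected miRNA reads of each library (RPM).

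A pri-miRNA is cut by DROSHA into a hairpin with a short 3′ overhang, and DICER then removes the loop and leaves a duplex. One strand, the guide, stays in an Argonaute protein, and the other, the passenger, is mostly degraded. In the let-7 family the guide lies on the 5p arm and acts as a repressor of growth and stemness genes such as RAS, MYC, HMGA2 and LIN28. The 5p end of a 3p passenger is made by DICER, and its 3p end by DROSHA before any trimming or tailing. Most human pre-let-7 hairpins leave DROSHA with an overhang shorter than usual and gain a single uridine from a terminal uridylyltransferase before DICER cuts them, while pre-let-7a-2, pre-let-7c and pre-let-7e have the usual overhang.

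The mature passengers are printed to show what separates the loci, from RefSeq on the GRCh38.p14 build, with the seed (bases 2 to 8) in capitals. The first 4 share a seed, the next pair shares another, and the last 2 have a seed each.
hsa-let-7a-3p: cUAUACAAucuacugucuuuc
hsa-let-7b-3p: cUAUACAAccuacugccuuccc
hsa-let-7f-1-3p: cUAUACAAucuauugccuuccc
hsa-miR-98-3p: cUAUACAAcuuacuacuuuccc
hsa-let-7a-2-3p: cUGUACAGccuccuagcuuucc
hsa-let-7g-3p: cUGUACAGgccacugccuugc
hsa-let-7e-3p: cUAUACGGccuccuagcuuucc
hsa-let-7i-3p: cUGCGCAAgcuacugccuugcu
All 8 printed begin with C, whereas the 7 guides of these hairpins begin with U and share 1 seed, as in let-7b-5p.
hsa-let-7b-5p: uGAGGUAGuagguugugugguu
The 8 printed passengers thus hold 4 seeds where the 7 guides hold 1. Pairs of passengers differed at 2 to 11 bases (median 6 over 28 pairs), and pairs of guides at 1 to 5 (median 3 over 21 pairs). The closest passengers were let-7b-3p with let-7f-1-3p and let-7a-2-3p with let-7e-3p, each at 2 bases. Of 21 positions compared, 7 were alike in all 8 passengers.

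The loci lie on 7 chromosomes of the same build. Sequence of let-7a-3p occurs at chr9:94176013-94176033 (plus strand) and at chr22:46112800-46112820 (plus strand), in let-7a-1 and let-7a-3. The let-7f-1-3p sequence lies at chr9:94176409-94176430 (plus strand). Both chromosome 9 hairpins overlap exons of the lncRNA MIRLET7A1HG and are 310 bases apart. On chromosome 22, let-7b-3p is at chr22:46113745-46113766 (plus strand), in the hairpin 863 bases from let-7a-3, and both overlap an exon of MIRLET7BHG. Passenger let-7a-2-3p is at chr11:122146523-122146544 (minus strand), in an intron of MIR100HG. An intron of SPACA6 holds let-7e-3p at chr19:51692838-51692859 (plus strand), 104 bases from the miR-99b hairpin and 389 from that of miR-125a. An intron of WDR82 holds let-7g-3p at chr3:52268280-52268300 (minus strand). On chromosome 12, let-7i-3p is at chr12:62603747-62603768 (plus strand), in an intron of MIRLET7IHG and an exon of another lncRNA. The passenger of miR-98 is at chrX:53556241-53556262 (minus strand) in an intron of HUWE1, a ubiquitin ligase gene that also holds let-7f-2 in an intron, 850 bases away. An exact search of both strands of the genome found let-7a-3p at 2 places and each of the other 7 printed passengers at 1 place.

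Passenger let-7b-3p was the most abundant of the 9 in each of the 4 libraries. It reached 134 RPM with the empty vector, 165 in wild type, 182 in mutant 1 and 176 in mutant 2, from 1795, 2021, 2555 and 2664 reads. Exact Poisson 95% intervals ran from 128 to 140, 158 to 172, 175 to 189 and 169 to 183 RPM. All intervals given here cover counting error only, since each condition has 1 library. The reads carry no molecular identifiers, so copies of a molecule are counted as separate reads. The empty vector interval of let-7b-3p lay below the others on this scaling, but with division by all miRNA reads wild type was lower. This strand took 31.4% (Wilson 95% interval 30.2 to 32.6) of all reads of the 9 passengers with the empty vector and 33.1%, 34.1% and 33.0% in wild type, mutant 1 and mutant 2. Its rank among untransfected miRNAs was 145 of 1315 with reads in the empty vector library.

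A middle group of 5 passengers lay between 41.7 and 74.1 RPM. In the empty vector library their order was let-7f-1-3p (57.2 RPM), let-7f-2-3p (53.4), miR-98-3p (51.9), let-7i-3p (47.8) and let-7g-3p (41.7), and the intervals of neighbours in this order overlapped. Passenger let-7i-3p was at 74.1 RPM in wild type, 70.2 in mutant 1 and 71.9 in mutant 2, and it moved from place 5 to place 2 or 3 among the passengers. Its 4 counts were 640, 907, 985 and 1088. For miR-98-3p the levels were 59.2, 72.4 and 58.4 RPM in wild type, mutant 1 and mutant 2, and for let-7f-2-3p they were 51.8, 49.0 and 58.2. Differences of this size between libraries depend on scaling, as the sums of the passengers show. Levels of let-7f-1-3p were 54.6, 63.4 and 68.3 RPM, and those of let-7g-3p were 50.9, 48.4 and 51.5.

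Lower counts were found for the remaining 3 names, in the same order in each library. Passenger let-7a-2-3p had 21.5 RPM with the empty vector, 24.4 in wild type, 31.0 in mutant 1 and 28.7 in mutant 2. The level of let-7e-3p was 15.9, 14.9, 13.8 and 16.5 RPM. Reads listed as let-7a-3p numbered 54, 49, 50 and 60, or 3.56 to 4.04 RPM, a count that does not serve as a level of its loci. Neighbours among these 3 counts did not overlap in any library.

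To see whether the transfections altered strands that no plasmid encodes, each transfected library was set against the empty vector, which the 3 comparisons share. The 9 passengers summed to 428 RPM with the empty vector, 499 in wild type, 534 in mutant 1 and 533 in mutant 2. Relative to the empty vector this was 1.17-fold in wild type (exact conditional 95% interval 1.13 to 1.21), 1.25-fold in mutant 1 (1.21 to 1.29) and 1.25-fold in mutant 2 (1.21 to 1.29). The sum of the 7 guides was at 0.976-fold, 0.831-fold and 0.943-fold, with single guides on both sides of 1: in wild type miR-98-5p was at 0.851 and let-7g-5p at 0.909, but let-7b-5p at 1.23. Direction of the passenger sum depends on scaling. Division by all miRNA reads, plasmid-encoded ones included, gave 0.894-fold in wild type, 0.960-fold in mutant 1 and 1.20-fold in mutant 2. Division by miR-16-5p gave 0.569-fold, 0.602-fold and 0.509-fold in the 3 libraries. Over untransfected miRNAs, edgeR TMM scaling gave 1.08-fold, 1.36-fold and 1.21-fold, and DESeq2 median-of-ratios scaling 1.09-fold, 1.34-fold and 1.22-fold. The authors scaled their miRNA abundances to miR-16-5p. A plasmid encodes miR-16-5p, whose level was 2.05-fold, 2.07-fold and 2.45-fold that of the empty vector. On the log2 scale the median miRNA was at 0.09, -0.02 and 0.05 in the main scaling, at -0.30, -0.40 and -0.01 by all miRNA reads, and at -0.95, -1.07 and -1.24 by miR-16-5p. Set against the median of all tested untransfected miRNAs, which no scaling changes, the sum was higher by 0.13 on the log2 scale in wild type, 0.34 in mutant 1 and 0.27 in mutant 2. In a bulk library, more cells with a strand and more of it per cell cannot be told apart.

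None of the 9 passengers was past 2-fold in a comparison with the empty vector in the main scaling. Among all untransfected miRNAs whose 2 counts averaged 50 or more, 1.91% of 471 were past 2-fold in wild type, 3.82% of 471 in mutant 1 and 1.44% of 486 in mutant 2. This call depends on scaling: with division by miR-16-5p, 4 passengers were past 2-fold (lower) in wild type, 3 in mutant 1 and 5 in mutant 2, beside 43.3%, 56.9% and 78.8% of those miRNAs. At 1.5-fold in the main scaling, 1 passenger was past in wild type and in mutant 2 and none in mutant 1, where the background was 10.8%, 9.26% and 20.6%. That passenger was let-7i-3p, at 1.55-fold in wild type (1.40 to 1.72), 1.47-fold in mutant 1 (1.33 to 1.62) and had an interval of 1.36 to 1.66 in mutant 2. These calls depend on scaling: with TMM let-7i-3p was at 1.43 in wild type, 1.60 in mutant 1 and 1.46 in mutant 2. In mutant 1, TMM put let-7a-2-3p at 1.57 and miR-98-3p at 1.52. With median-of-ratios scaling let-7i-3p was at 1.45, 1.57 and 1.47 in wild type, mutant 1 and mutant 2, and let-7a-2-3p at 1.54 in mutant 1. The share of all untransfected miRNAs past 1.5-fold was not counted with TMM or median-of-ratios scaling, so no passengers are called past it there. In the main scaling the ratio of let-7i-3p was above that of 93.2%, 89.8% and 92.6% of the untransfected miRNAs tested, a place that does not depend on scaling. Ratios of let-7b-3p were 1.23, 1.36 (1.28 to 1.44) and 1.31 (1.24 to 1.39), with all 3 intervals above 1. For let-7a-2-3p they were 1.13 (0.962 to 1.34), 1.44 (1.24 to 1.68) and 1.33. Passenger let-7g-3p had 1.22, 1.16 and 1.23, and miR-98-3p 1.14, 1.39 and 1.12. With division by miR-16-5p all of these ratios were below 1, and with division by all miRNA reads let-7i-3p was the only one of the 9 above 1 in wild type.

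Of the other passengers in the main scaling, all intervals of let-7e-3p, let-7f-2-3p and let-7a-3p included 1, with ratios between 0.864 and 1.09. For let-7f-1-3p the ratio was 0.954 (0.859 to 1.06) in wild type, 1.11 (1.01 to 1.22) in mutant 1 and 1.19 (1.09 to 1.31) in mutant 2. The median over the 9 passengers was 1.13, 1.16 and 1.19 in wild type, mutant 1 and mutant 2, beside 1.06, 0.988 and 1.04 over all tested untransfected miRNAs.

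Mutant 1 was also compared directly with wild type, and mutant 2 was not. The sum of the passengers was 1.07-fold (1.03 to 1.11) in mutant 1, and 0 of the 8 passengers that reached that minimum were past 2-fold or past 1.5-fold, against 1.49% and 14.9% of 470 untransfected miRNAs. The name under the minimum was let-7a-3p. The highest ratios were those of let-7a-2-3p at 1.27 (1.09 to 1.48), miR-98-3p at 1.22 (1.11 to 1.35) and let-7f-1-3p at 1.16 (1.05 to 1.29), followed by let-7b-3p at 1.10 (1.04 to 1.17). Ratios of let-7e-3p, let-7f-2-3p, let-7g-3p and let-7i-3p were 0.920, 0.947, 0.951 and 0.948, with intervals that included 1. The median untransfected miRNA was itself at 0.901-fold, or -0.15 on the log2 scale, and all 8 passengers lay above it. With TMM or median-of-ratios scaling, which move that median to 0.09 and 0.04, all 9 ratios were above 1.

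The share of a hairpin's reads that come from its passenger needs no scaling of the libraries. It can be read where one hairpin gives the guide, as in let-7b, let-7e, let-7g, let-7i and miR-98. Passenger let-7b-3p made up 2.42% (Wilson 95% interval 2.32 to 2.54) of the reads of both arms with the empty vector, 2.44% in wild type, 3.28% (3.16 to 3.41) in mutant 1 and 2.69% in mutant 2. The other 4 hairpins were all below 1% in all 4 libraries. Shares of let-7i-3p were 0.440%, 0.592%, 0.701% and 0.640% in the order empty vector, wild type, mutant 1 and mutant 2. In that order, let-7g-3p had 0.330%, 0.443%, 0.485% and 0.459%, and let-7e-3p had 0.377%, 0.392%, 0.423% and 0.424%. The share of miR-98-3p was 0.323% (0.300 to 0.348), 0.432%, 0.623% (0.586 to 0.662) and 0.433%. Guides and passengers of these hairpins were not ordered alike. With the empty vector, miR-98-5p was the highest of the 5 guides at 16040 RPM and let-7b-5p stood at 5398 RPM, between let-7i-5p at 10830 and let-7e-5p at 4208, while let-7b-3p was the highest passenger. In other untransfected hairpins whose 5p arm has more reads, the median 3p share in the empty vector library was 3.90% (quartiles 0.738 and 17.2, 131 hairpins), and 16.8% of them lay below the let-7 median of 0.377%.

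Between libraries, the ratio of passenger to guide reads was above that of the empty vector in all 5 single hairpins and all 3 transfected libraries. The let-7f name as a whole did not show this in mutant 1: let-7f-1-3p and let-7f-2-3p together made up 5.27% of its reads with the empty vector, 5.31% in wild type, 4.73% in mutant 1 and 5.74% in mutant 2. The median change was 1.34-fold in wild type, 1.47-fold in mutant 1 and 1.34-fold in mutant 2, beside 1.07, 1.08 and 1.01 over 64, 62 and 68 other hairpins with more 5p than 3p reads. Of those others, 59.4%, 54.8% and 51.5% were above 1. Past 1.5-fold were 0 of the 5 let-7 hairpins in wild type, 2 in mutant 1 and 0 in mutant 2, where the background over all such hairpins, let-7 included, was 21.7%, 44.8% and 17.8%. The 2 were miR-98, at 1.93-fold (1.75 to 2.13), and let-7i, at 1.60-fold (1.44 to 1.77). Hairpin let-7g was at 1.34-fold, 1.47-fold and 1.39-fold in wild type, mutant 1 and mutant 2, and all of its intervals were above 1. The intervals of let-7e included 1 in each library, and so did that of let-7b in wild type, at 1.00-fold (0.941 to 1.07). From wild type to mutant 1 the change was 1.44-fold (1.31 to 1.59) in miR-98, 1.36-fold (1.28 to 1.44) in let-7b and 1.18-fold (1.08 to 1.30) in let-7i, with 0 of 5 past 1.5-fold against 18.8%. The median was 1.18-fold over the 5, and 0.972-fold over 64 others.

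Passengers also split the reads of loci with the same guide. The let-7f guide comes from let-7f-1 on chromosome 9 and let-7f-2 on the X chromosome. The ratio of let-7f-1-3p to let-7f-2-3p reads was 1.07 (0.966 to 1.19) with the empty vector, 1.05 (0.944 to 1.18) in wild type, 1.29 (1.17 to 1.43) in mutant 1 and 1.17 (1.07 to 1.28) in mutant 2. These loci were not told apart by level with the empty vector or in wild type, and let-7f-1-3p was higher in both mutant libraries. Passengers let-7f-2-3p and miR-98-3p come from neighbouring hairpins in HUWE1. Their ratio was 1.03 (0.924 to 1.14), 0.874 (0.785 to 0.974), 0.678 (0.614 to 0.747) and 0.997 (0.907 to 1.10) in the empty vector, wild type, mutant 1 and mutant 2, so the pair was near parity in 2 libraries and miR-98-3p was higher in the others. For let-7a, 288 reads of let-7a-2-3p stood against 54 of let-7a-3p with the empty vector, but the latter count does not serve as a level of its loci.

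Cleavage by DICER was read from the 5p ends. In 8 of the 9 names the most frequent 5p end was the miRBase end. The same held for 88.2% of 195 other untransfected 3p miRNAs with at least 200 reads. Of the 65 among them that are passengers of hairpins with more 5p reads, it held for 81.5%. In the 8 names, with the 4 libraries summed, that end held from 83.3% of the reads in miR-98-3p to 99.0% in let-7b-3p. Passengers let-7f-2-3p (98.9%), let-7i-3p (98.7%) and let-7f-1-3p (97.4%) were close to let-7b-3p. Lower shares were found for let-7a-2-3p (92.2%), let-7g-3p (91.7%) and let-7e-3p (91.4%). Over 195 other untransfected 3p miRNAs with at least 200 reads the median was 94.0%, and over the 65 of them that are passengers of hairpins with more 5p reads it was 83.7%. In miR-98-3p a second start lay 1 nt downstream, in 17.3% (14.6 to 20.3) of reads with the empty vector, 14.2% in wild type, 15.3% in mutant 1 and 16.1% in mutant 2, with overlapping intervals. That start moves the seed by a base, as the most frequent isoform of each start shows, written in the bases of the RefSeq hairpin.
miR-98-3p, miRBase start, 2749 reads: cUAUACAAcuuacuacuuucc
miR-98-3p, start 1 nt downstream, 520 reads: uAUACAACuuacuacuuucc
Second starts were smaller in let-7g-3p and let-7e-3p. In let-7g-3p, reads that start 1 nt upstream were 5.56%, 4.82%, 5.15% and 6.68% of the 4 libraries, and in let-7e-3p reads that start 1 nt downstream were 5.16%, 6.01%, 8.29% and 5.22%.

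Cleavage by DROSHA, with any later trimming or tailing, was read from the 3p ends. Here the passengers formed 2 sets by offset from the miRBase end. That end depends on the annotated length, which is 21 nt in let-7g-3p and 22 nt in let-7b-3p, let-7f-1-3p and miR-98-3p. In let-7b-3p, let-7f-1-3p, let-7f-2-3p and miR-98-3p the most frequent end lay 1 nt short of the miRBase end, with 92.6%, 95.5%, 98.1% and 99.5% of the reads. Of 195 other 3p miRNAs, 12.8% had their most frequent end there, and of the 65 passengers among them 16.9%. In let-7a-2-3p, let-7e-3p, let-7g-3p and let-7i-3p it lay at the miRBase end, with 74.5%, 75.9%, 87.8% and 67.2%. The median share of the most frequent 3p end was 69.8% over those 195 miRNAs and 74.3% over the 65 passengers, and the shares of let-7f-2-3p and miR-98-3p were above those of 97.4% and 99.0% of the 195. The libraries differed little for most names. Exceptions were let-7a-2-3p, where the share was 65.3% (59.6 to 70.5) with the empty vector and 75.8% to 77.5% in the others, and let-7i-3p, where it was 72.4% (69.5 to 75.1) in mutant 1 and 64.2% to 66.5% in the others. The most frequent isoforms show where each strand stops. Their bases are those of the RefSeq hairpin between the isoform ends, since the counts list ends and not read sequences.
let-7b-3p, 8283 of 9035 reads: cUAUACAAccuacugccuucc
let-7f-1-3p, 3157 of 3355 reads: cUAUACAAucuauugccuucc
let-7g-3p, 2130 of 2639 reads: cUGUACAGgccacugccuugc
let-7i-3p, 2406 of 3620 reads: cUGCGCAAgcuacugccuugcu
let-7a-2-3p, 1072 of 1456 reads: cUGUACAGccuccuagcuuucc
let-7e-3p, 583 of 838 reads: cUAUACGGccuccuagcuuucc
The first 3 of these, and miR-98-3p, are 21 nt long, and the last 3 are 22 nt long. Passenger let-7i-3p was the most mixed of the 6, with 66.5% of its reads at 22 nt, 19.7% at 21 nt and 11.6% at 20 nt.

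These ends were set on the predicted folds of the RefSeq hairpins, by the groups of short and usual overhang given above. In all 7 hairpins folded, the first base of the guide was unpaired and the second was paired with the 3p arm. From the partner of that second base, the most frequent 3p end lay 3 bases further in let-7a-2 and let-7e, the hairpins with the usual overhang. It lay 2 bases further in let-7b, let-7f-1, let-7g and miR-98, which have the short one. The exception was let-7i, listed with the short overhang, where the most frequent end lay 3 bases further. The base of the hairpin after the shorter end is U in let-7i and C in the other 6, so in let-7i an added uridine and the genomic base cannot be told apart. Between the most frequent guide end and passenger start there were 22 bases in let-7a-2 and 23 in let-7e, and 32 to 36 in the 5 others. The guide ends of let-7a-2 and let-7f-1 are those of let-7a-5p and let-7f-5p, whose sequences occur at 3 and 2 places. These ends held 49.4% and 50.4% of the reads of those names, so they are not ends of a single locus. The 2 passengers of the usual group made up 8.76%, 7.89%, 8.39% and 8.46% of the passenger reads in the 4 libraries.

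Passenger let-7a-3p stood apart from the rest. Only 6 of its 213 reads over the 4 libraries began at the miRBase 5p end, and 97.2% (94.0 to 98.7) began 1 to 3 nt downstream. Nearly all ended 2 or 3 nt past the miRBase end, in pairs of nearly equal counts: of the reads that start 3 nt downstream, 61 ended 3 nt past it and 59 ended 2 nt past it. The hairpins let-7a-1 and let-7a-3 have the same bases up to 2 nt past that end. A like pair stood in the guide let-7f-5p, with 54772 reads ending 1 nt past the miRBase end and 55582 at it, and the let-7f hairpins share 0 bases past it. The authors kept unambiguous alignments that mismatch the genome only at the 3p end. Whether some reads were listed under 2 isoforms was not tested. The counts of let-7a-3p, let-7a-5p and let-7f-5p therefore serve here for comparison between libraries and not as levels of their loci.

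Other strands of the family and of the same transcripts are given for context. Guide let-7c-5p had 18.4, 16.6, 15.6 and 19.0 RPM in the empty vector, wild type, mutant 1 and mutant 2. The plasmid-encoded let-7d-3p had 519, 633, 562 and 644 RPM, above each of the 9 passengers, and its share of the let-7d hairpin was 10.8%, 11.6%, 13.4% and 12.8%. On the let-7e transcript, miR-99b-3p had 137, 156, 108 and 143 RPM and miR-125a-3p 40.3, 40.5, 34.4 and 42.3. On the let-7a-2 transcript, miR-100-3p had 1106, 1073, 950.1 and 1051 RPM and miR-125b-1-3p 605, 683, 536 and 569 in the same order. Against the empty vector, mutant 1 had 0.859-fold of miR-100-3p and 1.44-fold of let-7a-2-3p, a change that was unequal at any scaling. The 5 untransfected miRNAs whose levels over the 4 libraries followed the passenger sum most closely, by Euclidean distance of centred log2 RPM among 466, were miR-7-1-3p (0.04), miR-181b-5p (0.06), miR-5094 (0.08), miR-3620-3p (0.08) and miR-671-5p (0.10).

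Markers of cell types were read to check the label of the cell line. All 5 epithelial miRNAs had reads in the 4 libraries, with sums of 23097, 24670, 22573 and 23035 RPM and miR-141-3p the highest at 11388 RPM with the empty vector. The lowest of them, miR-205-5p, had 10.9 RPM with the empty vector, and 9.15, 10.4 and 12.9 in wild type, mutant 1 and mutant 2. The 3 intestinal miRNAs, led by miR-192-5p, summed to 3069, 2501, 1849 and 2451 RPM. The 3 blood cell markers also had reads in the 4 libraries and summed to 4.78 to 5.88 RPM, and the liver marker miR-122-5p had at most 1.23 RPM. No reads were listed for the 3 muscle markers or for the neuronal miR-124-3p, and miR-9-5p had at most 0.735 RPM. Several of these, such as miR-1-3p, miR-133a-3p and miR-9-5p, come from more than a single locus. The authors kept unambiguous alignments only, so the counts of such names do not test the label. The intestinal sum was lowest in mutant 1 and followed miR-192-5p (1791 RPM there and 3003 with the empty vector), with miR-215-5p also below its empty vector level in mutant 1 (24.2 RPM) and miR-194-5p at 33.5 and 31.8 RPM in the same libraries. Any part of this in the values of the passengers was not tested.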

How the data were processed

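The authors trimmed adapters with cutadapt, kept short reads, aligned them to hg38 with Bowtie2, assigned unambiguous reads to miRBase loci and deposited raw counts per isoform, without normalization. Here counts were summed over isoforms per name. Signs of the end offsets were settled from the data: with both counted inwards, all 10981 isoforms with a RefSeq length fell between 18 and 26 nt, and with other signs at least 735 did not. Members and lists were chosen with earlier results of these data known, and the change of the passenger to guide ratio was added after the data were seen. No test was run, as each condition has 1 library. Intervals are at 95%: exact Poisson for levels, exact conditional for ratios, Wilson for shares. Named are the members, their guides, let-7c and let-7d strands, miR-16-5p, strands of the same transcripts, the 5 nearest profiles and markers. Alternatives included edgeR 4.0.16 TMM and DESeq2 1.42.0 scaling in R 4.3.3. Python 3.11.15, pandas 2.3.3, scipy 1.17.1 and ViennaRNA 2.7.2 were used, with GENCODE 44 for host genes. Calculations were tested on simulated data. Plasmids of mutant 1 and mutant 2 are as labelled. The efficiency of adapter ligation to each strand was not measured.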

Additional observations from a re-analysis of the deposited data

How the results depend on the processing

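The summed level depended on scaling. In wild type, mutant 1 and mutant 2 against the empty vector it was 0.894, 0.960 and 1.20 by all miRNA reads, and 0.569, 0.602 and 0.509 by miR-16-5p. TMM gave 1.08 in wild type, 1.36 in mutant 1 and 1.26 for mutant 1 against wild type, and DESeq2 gave 1.09, 1.34 and 1.22. Without let-7b-3p, mutant 1 was at 1.20. By miR-16-5p, 4, 3 and 5 passengers were past 2-fold (lower) in wild type, mutant 1 and mutant 2, beside 43.3%, 56.9% and 78.8% of all tested miRNAs. At 1.5-fold in the main scaling, 1 of 9 was past in wild type, 0 in mutant 1 and 1 in mutant 2. Beside them, 10.8%, 20.6% and 9.26% of all tested miRNAs were past. In the main scaling, minimums of 10 reads, 200 reads or none left the number past 2-fold at 0. Beside it, 8.02%, 11.3% and 7.17% of all tested miRNAs were past 2-fold in wild type, mutant 1 and mutant 2 at 10 reads. At 200 reads these shares were 0.329%, 1.98% and 0.968%, with 7, 8 and 8 of the 9 passengers tested. With no minimum they were 19.4%, 22.3% and 20.1%. Over the 5 single hairpins the passenger share was 0.591%, 0.754%, 0.957% and 0.807% in the empty vector, wild type, mutant 1 and mutant 2. With reads at the miRBase 5p end only it was 0.560%, 0.721%, 0.914% and 0.769%, and with the most frequent isoform of each arm 0.545%, 0.700%, 0.908% and 0.753%. The change of the passenger to guide ratio over the 5 stayed within its intervals under both. The share of let-7b-3p in passenger reads was 32.9%, 34.4%, 35.6% and 34.5% at the miRBase 5p end, and 34.0%, 35.9%, 36.7% and 35.4% from most frequent isoforms. The pooled share of the most frequent 5p end was 94.8% with the empty vector and 95.1% in mutant 2. It became 95.4% and 95.9% among reads with the most frequent 3p end, and 95.4% and 95.6% without isoforms under 3 reads. The pooled share of the most frequent 3p end was 86.6%, 86.9%, 89.5% and 87.6% in reads of 20 to 24 nt, a set without let-7f-2-3p, whose length was not used. All 4 of these shares left their main intervals. Among reads with the most frequent 5p end, 1 of 4 pooled shares did so, that of mutant 2 at 89.4%. Leaving out let-7a-3p, chosen after the data were seen, kept the summed levels and the pooled end shares within their intervals and the number past 2-fold at 0. Of 596 values for single members, 159 left their main interval. Dividing guide reads over the let-7a and let-7f loci was not run, since it gives each locus the share of its name. Reads at the miRBase 5p end gave no ratio for let-7a-3p, which had 0 such reads in 3 libraries. No paired analysis was possible because each condition has 1 library and no test was run. The cause of these shifts was not tested. Depth limits let-7a-3p and let-7e-3p most.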
